A study of Mus musculus with 2 samples.

Results

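The 659 array probes described here are named by a chromosome interval of the mm9 mouse genome and were at least 2-fold brighter in ATDC5 cells labelled as overexpressing HES1 than in ATDC5 cells labelled as overexpressing GFP. They were chosen by 3 properties: a position in place of a gene accession as the name, a signal well above background on 1 or both of the 2 arrays, and the 2-fold difference itself. The array carried 16194 position-named probes, of which 15988 had no outlier flag. A signal well above background was seen for 7130 of these, on 1 array or both. The 659 probes were 9.24% of those 7130. They carried 416 names, a name being an interval with a strand suffix, and lay in 388 intervals, 15.3% of the 2530 intervals with a detected probe. Because the HES1 to GFP ratio chose the probes, that ratio is given as a description throughout, and with 1 array per group no test was possible.

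ATDC5 is a mouse cell line of the chondrocyte lineage. Both lines were stable lines made by lentiviral transduction, one to overexpress GFP, a fluorescent protein used as the control, and one to overexpress HES1, a transcriptional repressor downstream of Notch. Each was kept as a monolayer for 3 days on a 60 mm dish, and labelled cRNA was made from 0.1 µg of total RNA and hybridised to a single-colour Agilent mouse array. Whether a line was a clone or a pool, and which promoter or species of HES1 was used, is not given in the sources used here. Signals are in scanner units after the 75th percentile of each array was set to 1057.2, and a signal may be compared between arrays for a probe but not between probes. Where a probe has a pair of signals, the GFP signal comes first.

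Probes named by position on this kind of array were designed against intervals thought to hold long intergenic non-coding RNAs. Such RNAs are transcribed by RNA polymerase II, are often spliced and polyadenylated, do not encode a protein, and are usually expressed at lower levels and in fewer cell types than messenger RNAs. Many of the intervals were first drawn from chromatin marks of active promoters and transcribed bodies, which do not show the strand, so an interval can have probes for both strands. The names end in F or R for most probes. The file headers do not say how the suffix relates to the transcript, and it is reported here as printed. Intervals were not matched to genes, because the gene table used here is of another build, so an interval may overlap a coding gene or its untranslated end.

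The arrays as a whole stood as follows. Mouse Hes1 had a single probe, and neither its GFP signal (10.2) nor its HES1 signal (10.3) was well above background, so it checks neither label and the lines are called by their labels. Of 15 chondrocyte marker genes 11 were measured, Sox9 and Col2a1 among them, 0 were brighter and 2 dimmer (Sox6 and Cytl1), with a median log2 difference of -0.37. Sox6 (57.7 and 28.1) was not well above background on the HES1 array. Against 39.0, the dimmest HES1 signal called well above background, it was short of 2-fold dimmer. The summed signal of the 11 genes, of which Sox5 and Col2a1 made up the most, was 55471 for GFP and 44333 for HES1. Of 8 macrophage markers on the array 4 were measured (1 brighter), with sums of 2570 and 2654. A list of interferon-stimulated genes, which are induced in antiviral signalling, had 78 of 80 measured genes at least 2-fold brighter in HES1. Of all 14273 measured genes, 11.2% were that much brighter. The summed signal of the list went from 409465 to 5.67e+06. All 80 were detected in HES1 but only 64 in GFP, so the rest counted as measured through the HES1 array alone. The list was chosen with earlier results of these data known, so these shares are a description and not a test of enrichment. The part of that list in the interval signals described next was not tested.

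Most of the 659 probes were dim, and a minority was very bright. On the HES1 array their signals ran from 39.3 to 134360, with a median of 130. Their GFP signals ran from 7.65 to 9181, with a median of 30.9. All of them were well above background on the HES1 array, but 257 were so on both arrays and 402 on the HES1 array only. For those 402 the fold is given as a lower bound, set against the probe's own GFP signal or a floor, whichever was higher. The floor was 38.1, the dimmest GFP signal that the scanner software called well above background. Where the probe's own signal was higher, the bound is the measured ratio. By bounds 197 of the 402 stayed at least 2-fold brighter, which with the 257 made 454 probes. The median measured log2 difference of the 659 was 1.70, and 1.20 with bounds in place. The scanner software's own error for the log2 difference had a median of 0.23 for the 257 probes seen on both arrays and 0.71 for the 402. It covers neither cultures nor arrays. Of the 659, 212 had a HES1 signal under 2 times 39.0, the matching floor of the HES1 array, and 442 lay within 2 scanner errors of the 2-fold threshold.

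The difference ran further upward than downward. Among the same 7130 probes, 586 (8.22%) were at least 2-fold dimmer on the HES1 array, so the numbers past 2-fold were close in both directions. Restricted to the 5728 probes seen on both arrays, 4.49% were brighter and 5.34% dimmer. Quantile normalization turned the split to 555 brighter and 771 dimmer, while normexp background correction of the median signals followed by quantile normalization gave 198 and 83. Beyond 2-fold the directions parted: 266 probes were at least 4-fold brighter against 79 dimmer, and 71 were at least 16-fold brighter against 3 dimmer. By bounds 52 were at least 16-fold brighter and 0 dimmer. The 71 probes carried 34 names in 28 intervals, so they are not 71 separate loci. With outlier-flagged spots kept, the count of probes at least 16-fold dimmer was 15 and that of brighter probes stayed at 71. Among the 24944 detected probes not named by position, 9.95% were brighter and 5.41% dimmer, and among the 22452 seen on both arrays 5.84% and 4.41%.

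The 4 lowest members had log2 differences from 1.00059 to 1.01, the lowest being a probe of chr19:19005109-19008657 with suffix R at 317 (GFP) and 635 (HES1). The 4 highest probes outside had differences from 0.996 to 0.998, and all 4 were seen on the HES1 array only. Scanner errors of these 8 probes were between 0.21 and 0.67, larger than their distance from the threshold.

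Chromosome 1 held the most members, 92 of its 528 detected probes (17.4%), against 9.24% over all chromosomes. On the other chromosomes the share ran from 4.37% on chromosome 16 to 11.5% on chromosome 8. Chromosomes 3 and 17 had 11.2% each, chromosome 9 had 10.9%, and chromosomes 14 and 7 were near the low end at 4.84% and 5.33%. Counted by interval the excess was smaller. On chromosome 1, 21.8% of detected intervals held a member, against 15.3% over all chromosomes. The other chromosomes ran from 10.6% (chromosome 16) to 20.7% (chromosome 8). Chromosome 1 also held 37 of the 71 probes at least 16-fold brighter, and 36 of those 37 lay in 3 groups of neighbouring intervals. Those 3 groups were picked out after their values were seen. Without their 54 detected probes, chromosome 1 had 43 members among 474 detected probes, or 9.07%, beside 8.62% over all chromosomes with the same probes left out. In dimmer probes the order differed, with 19.6% of detected probes on chromosome X and 18.4% on chromosome 10, where 9.06% and 10.3% were brighter. Chromosome 1 had 10.2% dimmer, beside 8.22% over all chromosomes.

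The group with the largest differences spanned chr1:175653557-175717250. In it all 26 detected probes, in 4 intervals, were members, with a median log2 difference of 5.86 (5.26 with bounds) and a lowest bound of 2.27. The largest difference on both arrays belonged to chr1:175653557-175671940, suffix R, where 1 probe went from 66.3 on the GFP array to 36244 on the HES1 array, a 546-fold difference with a scanner error of 0.26 on its log2 difference of 9.09. The other 2 probes of that name read 594 and 36358, and 39.4 and 14531. The last of these was seen on the HES1 array only. Its GFP signal was above the floor, so its bound is the measured ratio of 369-fold, with a log2 scanner error of 0.39. All 3 were far past 2-fold, with log2 differences of 5.94 to 9.09.

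Overlapping it, chr1:175654606-175672031 had 5 probes per strand. Its 5 R probes were tightly grouped, from 38.8-fold to 55.2-fold, with GFP signals of 403 to 1254 and HES1 signals of 15657 to 52107. Its 5 F probes were not well above background on the GFP array (7.91 to 10.04) and read 384 to 996 on the HES1 array, which sets bounds of 10.06-fold to 26.1-fold. Both suffixes were thus read on the HES1 array and R alone on the GFP array. Intervals that overlap may read the same transcript, and their probes are not independent measurements.

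At the other end of that group, chr1:175705225-175717250 again had 5 probes per strand. An R probe there had the highest HES1 signal of any member, 3956 (GFP) and 134360 (HES1) (34.0-fold), and the others were between 37.8-fold and 121-fold. Of the 5 F probes 1 was well above background on both arrays, at 49.0 and 1257. Those not seen on the GFP array had HES1 signals of 184 to 340. The 5 R probes were all seen on both arrays. Mouse chromosome 1 also carries the Ifi200 genes, a family of interferon-inducible DNA-binding proteins. Their gene probes on this array included Ifi207, at 56.8 and 35853, and Ifi204, at 6469 and 177644. Whether these intervals lie in those genes was not tested. The interferon list was not confined to chromosome 1, which held 5 of its genes on the array (4 brighter). Chromosome 5 held 11 (11 brighter) and chromosome 11 held 16 (13 brighter).

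In a further pair of groups on chromosome 1 all but 1 member each were seen on the HES1 array only. In chr1:84947500-85167730, 14 of 18 detected probes were members and 13 of the 14 were seen on the HES1 array only, while its other detected probes included R probes of chr1:84947500-85045150 at GFP signals of 53.9 and 166. Both probes of chr1:85036677-85038530, suffix R, were at background on the GFP array (12.6 and 10.06) and read 6404 and 3720 on the HES1 array, at least 168-fold and 97.5-fold brighter. In the same group the 3 detected F probes of chr1:85117750-85129200 read 710 to 3432 on the HES1 array, at least 18.6-fold to 90.0-fold brighter, and its 5 R probes, all members, read 64.2 to 337 there. In the neighbouring chr1:85300475-85331475, 9 of 10 detected probes were members, all with suffix R. It includes chr1:85304494-85305390, with 3 probes at 2697 to 3302 on the HES1 array and bounds of 70.7-fold to 86.6-fold. The Sp100 family of interferon-inducible nuclear proteins is also on chromosome 1, where the Sp100 probe read 108 and 410 and the Sp110 probe 97265 and 158518, short of 2-fold, and its overlap with these intervals was not tested.

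The group with the most intervals lay on chromosome 2 and had smaller differences. At chr2:127988295-128250301, 17 of 19 detected probes in 6 intervals were members, 15 of them with suffix R, and 14 were seen on both arrays. Their median log2 difference was 1.99 (1.83 with bounds). The F members, both of chr2:128249388-128250301 and not seen on the GFP array, were at least 10.8-fold and 3.32-fold brighter (30.3 and 412, 9.54 and 127). The largest difference seen on both arrays was in chr2:128142035-128142481, suffix R, whose 3 probes read 107, 108 and 142 on the GFP array and 1578, 1447 and 1708 on the HES1 array, the first of them 14.7-fold brighter. Its close neighbour chr2:128137419-128141735 had 3 R probes with log2 differences of 1.96 to 2.16. These 2 names differed from each other by more than the probes within either did.

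Of the other large groups, 2 were mixed. In chr13:28477490-28985604, a 508 kb interval with smaller ones nested in it, 12 of 22 detected probes were members, and all 12 had suffix R. Their HES1 signals were 46.4 to 228, and 8 of the 12 were seen on the HES1 array only. The members with the largest differences were among those 8 and had bounds of only 1.22-fold to 3.12-fold. In chr1:138518674-138632310, 5 of 22 detected probes were members and the median over all 22 was 0.35. The leading probe there, of chr1:138579972-138587381 with suffix F, went from 309 to 1492 (4.83-fold). The other 4 members were seen on the HES1 array only. Their bounds were 1.23-fold, 1.42-fold, 1.75-fold and 2.25-fold, so most fell short of 2-fold by bounds. A smaller group at chr9:96664617-96683617 had 11 members of 15 detected probes, 9 of them F, among them a probe at 122 and 696.

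With intervals joined when they overlap or lie at most 100 kb apart, the 388 member intervals fell into 307 groups, and 52 groups held at least 2 intervals. Those 52 groups held 133 intervals and 292 of the 659 probes. The 379 intervals with a dimmer probe gave 60 such groups holding 144 intervals. All 2530 detected intervals gave 617 such groups holding 1852 intervals.

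Several loci elsewhere had every detected probe of a name past 2-fold. The highest bound off chromosome 1 was at chr7:111526943-111545093, suffix R, whose only R probe read 8.94 and 8671, at least 227-fold brighter. Inside it, chr7:111530578-111539097 had 3 R probes that read 7.74 to 38.3 on the GFP array and 2517 to 2745 on the HES1 array, at least 66.0-fold to 72.0-fold brighter. On chromosome 6, chr6:57583950-57624216 had 2 F probes at 585 and 925 on the GFP array and 17247 and 27026 on the HES1 array, 29.5-fold and 29.2-fold brighter. These 2 probes had log2 differences of 4.88 and 4.87, closer than their scanner error of 0.20. Both R probes of chr6:3283191-3284581 were members too, at 73.3 and 2756 (37.6-fold) and at 45.2 and 1374 (30.4-fold). On chromosome 1, outside the 3 groups, a probe of chr1:87343550-87362900 with suffix F read 9.97 and 3944, at least 103-fold brighter.

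All 8 detected R probes of chr6:129151512-129208737 were members, from 3.03-fold (121 and 366) to 16.8-fold (436 and 7352), and all were seen on both arrays. All 5 R probes of chr17:84470764-84486339 were members as well, at 10.6-fold and 34.5-fold for the pair seen on both arrays (232 and 2468, 72.0 and 2483). For chr4:124127144-124334840, suffix R, all 5 probes were members and none was seen on the GFP array, with HES1 signals of 301 to 847 and bounds of 7.90-fold to 22.2-fold. The 10 F probes of chr17:26911397-26917047 were all members, with log2 differences of 1.13 to 1.31 at GFP signals of 837 to 3829. Their range of 0.18 is within the scanner error of 0.20. Probes without a suffix numbered 13, of which 3 were members, all in chr3:34856791-34869544, one of them at 142 and 371.

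Probes of a name did not always move together. Of 188 names with a member and at least 3 detected probes, all detected probes were members in 57 and only 1 was in 82. The median range of log2 differences within those 188 names was 1.44, against 0.53 in the 931 names with at least 3 detected probes and no member. The rule chose the first set by an extreme probe, so the 2 medians are a description only. In chr12:88216447-88224965, suffix R, 1 probe read 12.5 and 1165, at least 30.5-fold brighter, while the other 2 detected probes had log2 differences of -0.77 and -0.74. In 8 names a brighter probe stood beside a probe at least 2-fold dimmer. Of the 416 names, 134 rest on a single detected probe.

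By suffix, members were split nearly as the detected probes were. Among members 353 had R and 303 had F, so 53.8% were R, beside 52.1% of all detected probes and 49.6% of all position-named probes. Of detected R probes 9.5% were brighter, and of detected F probes 8.89%. Of the dimmer probes 60.2% were R, and dimmer probes were 9.5% of detected R and 6.83% of detected F probes. The median interval length of members was 12926 bases, beside 13381 for detected probes, with a range from 112 to 508115 bases.

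Both strands were read for part of the intervals. Detected probes of both suffixes existed for 650 intervals. In 28 of these the members lay on both strands, in 55 on F only and in 62 on R only. Counting overlapping as well as identical intervals, there were 55 pairs of opposite names with a member in each, 28 by bounds and 11 where both arrays had to be well above background. Among all detected probes there were 1423 overlapping pairs of opposite names, and among dimmer probes 38. Of the 650 intervals, 15 had a dimmer probe on both strands. In 16 intervals 1 strand held a brighter and the other a dimmer probe.

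Among intervals with members on both strands, chr6:57583950-57624216 had, beside its F probes above, 4 R probes with HES1 signals of 248 to 628 and GFP signals of 10.9 to 34.4, at least 6.50-fold to 16.5-fold brighter. At chr11:119250824-119286324 the 3 F probes were 9.69-fold to 19.1-fold brighter on both arrays, and of its 3 R members 1 was seen on both arrays, at 167 and 616. At chr3:87757295-87774970, 4 of 5 F probes were members (1348 to 8162 on the GFP array, 4211 to 25683 on the HES1 array) and the fifth was not (93413 and 80545). Its single detected R probe read 33.8 and 105, at least 2.74-fold brighter. At chr2:158169020-158191295, 4 of 9 detected R probes were members (median log2 difference of all 9, 0.66), among them one at 9181 and 20433 (2.23-fold). On its F strand 1 of 4 was a member (median of all 4, 0.12), at 21.6 and 85.1, a fold of at least 2.23. At chr6:3333825-3349525 the R probe was 23.7-fold brighter (154 and 3654) and the F probe, not seen on the GFP array, at least 14.9-fold (25.8 and 570). At chr7:111526943-111545093, where the R probe above had a log2 bound of 7.83, the 4 detected F probes had a median log2 difference of -0.57 (the same with bounds), and the 1 F member, at 11.1 and 58.6, was at least 1.54-fold brighter.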

How the data were processed

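Membership was computed from the deposited scanner files of 2 arrays, 1 per line. Their values are an intensity per spot made with Agilent Feature Extraction 10.10.1.1, background-subtracted and detrended but not scaled between arrays, per the file headers. Intervals are those of the probe names, on mm9 per the file headers. The authors' deposited value table holds the same intensity scaled to a 75th percentile of 1057.2, and matched the scaling used here within 0.0013 (log2) above a signal of 100.

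Each processed signal was divided by the 75th percentile of its array, taken over 59305 spots that are not controls, and its log2 was used. Spots with an outlier flag on either array were left out (1053 spots, 206 of them position-named and 9 otherwise members). Position-named probes have 1 spot each. Members, lists and the rule for named probes were chosen with earlier results of these data known. That rule took the 12 largest differences on both arrays, the 6 highest bounds, the 8 brightest, the 5 groups with most intervals, 8 strand pairs and 4 probes on each side of the threshold; others named were chosen after their values were seen. A symbol was found for 26869 other probes in a RefSeq table of GRCm38.p6, used for names only, and a gene was represented by its brightest detected probe. The marker lists for endothelial, lymphocyte and epithelial cells had 2, 2 and 1 measured genes, with 0, 1 and 1 brighter. Python 3.11.15, R 4.3.3 and limma 3.58.1 were used. With 2 arrays, their number limits the precision.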

Additional observations from a re-analysis of the deposited data

How the results depend on the processing

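No paired analysis was possible because each group has 1 array. Of the alternatives tried, quantile, median and loess scaling, the authors' deposited values and keeping outlier-flagged spots left all 7 counts and shares within 1.5 times their value. Under normexp on median signals with quantile normalization, a setting that changes signal, background and scaling together, there were 198 brighter and 83 dimmer probes, 2.78% and 4.97% of position-named and other probes brighter, 17 groups of at least 2 intervals and 10 strand pairs. Requiring both arrays gave 257, 306, 4.49%, 5.84%, 24 and 11 in the same order. With no filter on dim probes there were 1488 brighter, 1049 dimmer, 166 groups and 170 pairs. At 1.5-fold these were 1090 brighter, 1455 dimmer, 15.3% and 15.9%, 109 groups and 108 pairs; at 3-fold, 362 brighter, 161 dimmer, 5.08% and 6.37%, 24 groups and 20 pairs. With bounds there were 28 pairs. The R share with bounds was 57.7%, beside 53.8% in the main setting, and was counted as moved. For this share the criterion was a binomial interval around the main value, which takes the probes as independent. The filter and fold settings change how many probes can be called by construction; for the normexp setting, which of its changes moved the counts was not tested. Of 57 probes named by rule, 52 moved by more than their scanner error under that normexp setting (by up to -3.95 on the log2 scale) and none changed sign. The search for neighbouring genes was not run, as the deposited files give no positions of named genes and the gene table used is of another build than the intervals.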
